A study of Mus musculus with 4 samples.

Results

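The clustered histone genes of the mouse were examined in single cells of the embryonic heart. Members were all rows of the count files whose symbol starts with Hist1h, Hist2h, Hist3h or Hist4h and that held at least 50 UMIs over all barcodes, and 63 of the 32285 genes met this rule. They comprised 6 linker (H1) genes and 57 core genes, of which 16 encode H2A, 16 H2B, 12 H3 and 13 H4. Just inside the limit were Hist1h1t with 123 UMIs and Hist2h3c2 with 127, and the 4 rows outside it were Hist1h2aa with 6, Hist2h2aa2 with 2, Hist1h2ba with 1 and Hist1h2bq with 0. Within the members, Hist1h1e was selected on its measured values, since earlier results from these same libraries had it lower in Ho than in Wt, so its difference between the genotypes is described here without a test.

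Core histones H2A, H2B, H3 and H4 form the nucleosome, and linker histone H1 binds the DNA that enters and leaves it. Most of their genes lie in clusters and are transcribed in S phase, when newly made DNA has to be packed. Their mRNAs usually end in a conserved stem-loop, bound by the stem-loop binding protein Slbp, in place of a poly(A) tail, and are degraded when replication ends. Some clustered genes also give polyadenylated mRNA, which is known from differentiated cells that have left the cell cycle.

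Hearts of C57BL/6J embryos at E10.5 were dissociated with collagenase II, red blood cells were lysed, and single cells were captured in a droplet assay that primes on poly(A). Wt hearts were wild-type, and Ho hearts were homozygous for Cyp51 I383V, a knock-in made with CRISPR/Cas9 in the gene of a cholesterol synthesis enzyme. The allele is present in every cell of Ho embryos from fertilization. CRISPR/Cas9 is the treatment listed for all 4 libraries, the wild-type ones included, but the study used it to make the founders of the knock-in line. There were 2 libraries per genotype (Wt1, Wt2, Ho1 and Ho2), and the number of hearts in each is not given in the sources used here, so p-values measure only the spread between these libraries, which may be technical. A UMI is the tag of 1 captured mRNA molecule, and levels are given as CPM, a gene's UMIs divided by all UMIs of the summed cells and scaled to the same total in every library. Because each molecule is counted once near its 3′ end, CPM of different genes were not divided by length. A count here is of captured molecules, and histone mRNA without a poly(A) tail is captured poorly, so the levels are not those of all histone mRNA.

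After filtering, the libraries Wt1, Wt2, Ho1 and Ho2 kept 8908, 7154, 6980 and 6126 cells, with a median of 10552, 14231, 15663 and 15843 UMIs per cell. Cells were gated on 1 marker gene each, namely Tnnt2 (cardiomyocytes), Cdh5 (endothelium), Hapln1 (endocardial cushion mesenchyme), Crabp1 (pharyngeal and outflow mesenchyme) and Upk3b (epicardium), and UMIs were summed per library and gate. Of 6 listed markers for each of these types, 6 had their highest mean level in the gate of that type in all 5 cases. Each list holds the gating marker itself, for which the gate fixed this outcome. Of 5 epithelial markers, 3 were highest in the Crabp1 gate and 2 in the Upk3b gate, where the 5 summed to 668 to 877 CPM. In the Upk3b gate the 6 cardiomyocyte markers summed to 3017 to 4910 CPM, against 36458 to 39187 in the Tnnt2 gate. The Tnnt2 gate held 1588, 2462, 3224 and 2322 cells in Wt1, Wt2, Ho1 and Ho2, the Cdh5 gate 454, 714, 599 and 300, and the Hapln1 gate 846, 1018, 1281 and 747. The Upk3b gate held 129, 194, 127 and 217. The Crabp1 gate was uneven, with 2315, 454, 37 and 363 cells, so that values of Ho1 in that gate rest on 37 cells and 503590 UMIs.

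Ho1 stood apart in other ways. It was the library with Xist, at 254 CPM in all kept cells against at most 0.0515 CPM in the other 3, so sex and library cannot be told apart for it. Its erythroid list summed to 2292 CPM in all kept cells, against 344 in Wt1, 589 in Wt2 and 815 in Ho2, with Hba-x, an embryonic globin, as the most abundant gene. In Wt1, Wt2, Ho1 and Ho2 the list summed to 3.39, 8.75, 247 and 14.1 CPM in the Tnnt2 gate and to 99.9, 75.7, 652 and 124 in the Cdh5 gate. It stayed at or below 66.5 CPM in the Hapln1 gate, 21.8 in Crabp1 and 19.7 in Upk3b, with Ho1 highest in each. In the Cdh5 gate Ho1 was also highest for all 6 cardiomyocyte markers, which summed to 339, 461, 955 and 314 CPM. The part of sex, of erythroid RNA and of these markers in the results was not tested, and the main summaries of Ho against Wt are given with and without Ho1. Of barcodes, 14 to 34 were shared by any pair of libraries, and 9 to 29 among kept cells.

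All 63 members were found by identifier in GENCODE M21 on GRCm38, 51 on chromosome 13, 9 on chromosome 3, 2 on chromosome 11 and 1 on chromosome 6, and 59 of them had 1 exon. A perfect stem-loop, with a stem of 6 bases that starts with GG and a loop of 4 that starts with TTT, was found in the annotated transcripts of 43 members, against 68 (0.31%) of all 21901 protein-coding genes. The sites of the members on which the results turn are shown with the stem-loop in capitals, because it is the end that a polyadenylated transcript runs past.
Hist1h1e: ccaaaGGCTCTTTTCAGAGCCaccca
Hist1h1c: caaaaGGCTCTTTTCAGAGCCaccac
Hist1h1d: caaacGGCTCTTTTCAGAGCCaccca
Hist1h2ae: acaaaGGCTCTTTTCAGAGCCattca
Hist3h2ba: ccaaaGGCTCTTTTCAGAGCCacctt
Hist3h2a: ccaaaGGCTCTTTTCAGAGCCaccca
Hist1h1t: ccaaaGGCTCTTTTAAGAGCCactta
The stem-loop itself was identical in the first 6. The annotated transcript went on for 1153 bases past it in Hist1h1e, 840 in Hist1h1c, 4884 in Hist1h1d, 151 in Hist1h2ae, 169 in Hist3h2ba and 1643 in Hist3h2a. In all, 22 members had over 100 annotated bases after the stem-loop, and these 22 held 48.9% of the clustered histone UMIs of the kept cells. The annotated transcripts of Hist1h1a and Hist1h1b end at 741 and 743 bases without the site. Hist1h2bc has 2 exons over 8710 bases and no stem-loop in its annotated transcript.

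Hist1h1e encodes H1.4, and its annotated exon lies on chromosome 13 at chr13:23620629-23622558 on the minus strand. On the same strand this exon overlaps the annotated span of Hist1h2be, so that reads in the overlap may count for neither gene. The overlap covers the 3′ end of the Hist1h1e exon, where the assay reads. Hist1h2be (H2B) itself had 4.98, 4.401, 5.72 and 4.41 CPM in Wt1, Wt2, Ho1 and Ho2 of the Tnnt2 gate, with overlapping genotypes. Its Ho libraries both lay below both Wt libraries in 2 of 5 gates and above them in 0. Of all genes, 14.8% to 22% lay below in this way in a single gate. A same-strand overlap was annotated for 4 members and one on the opposite strand for 5. Many core genes have near-identical copies, and how reads that fit several copies were shared is uncertain, so values of single core members carry that limit.

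Promoters of 58 members were matched to RefSeq windows (GRCm38.p6, 250 bases before to 50 after the start) through older symbols. The CCAAT box (CCAAT) was in 49 of 58 windows and in 37.4% of all 32851 windows, and the H1 box (AAACACA) was in 7 of 58 against 7.18%, of which 5 were among the 6 linker genes. The TATA box (TATAAA) was in 33 of 58 against 13.6%, and the octamer (ATTTGCAT) in 11 of 58 against 1.74%, in H2A and H2B genes (6 and 5 windows) and in no linker gene. Both strands were searched, none of these words lies within another, and a match describes letters, not a bound site. For Hist1h1d the RefSeq start lies inside the GENCODE transcript, which begins upstream at chr13:23553262. The 120 bases before the RefSeq start are shown for the 5 linker genes with appreciable levels, since their S-phase responses differ below. The words searched are in capitals.
Hist1h1e (chr13:23622559-23622678, minus strand): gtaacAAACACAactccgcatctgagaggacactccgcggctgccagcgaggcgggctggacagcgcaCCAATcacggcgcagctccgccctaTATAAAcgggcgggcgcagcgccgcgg
Hist1h1b (chr13:21780626-21780745, minus strand): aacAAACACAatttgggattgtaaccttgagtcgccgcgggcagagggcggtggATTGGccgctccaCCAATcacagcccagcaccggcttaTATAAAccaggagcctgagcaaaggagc
Hist1h1c (chr13:23738687-23738806, plus strand): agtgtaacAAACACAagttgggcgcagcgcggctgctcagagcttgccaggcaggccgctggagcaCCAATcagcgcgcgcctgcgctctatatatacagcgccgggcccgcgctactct
Hist1h1d (chr13:23554912-23555031, plus strand): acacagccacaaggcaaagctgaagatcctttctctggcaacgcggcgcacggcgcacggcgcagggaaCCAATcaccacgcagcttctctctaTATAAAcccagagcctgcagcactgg
Hist1h1a (chr13:23763548-23763667, plus strand): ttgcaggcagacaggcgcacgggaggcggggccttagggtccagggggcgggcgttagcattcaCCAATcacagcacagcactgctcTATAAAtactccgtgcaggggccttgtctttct
Each of the 5 had a CCAAT box in this stretch. The H1 box stood there in Hist1h1e, Hist1h1b and Hist1h1c, and TATAAA was missing from Hist1h1c alone.

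A few genes gave most of the signal. In all kept cells the H2A gene Hist1h2ae was the most abundant, at 467, 307, 236 and 230 CPM in Wt1, Wt2, Ho1 and Ho2, followed by the linker gene Hist1h1b (H1.5) with 273, 220, 145 and 180 CPM. Hist1h2ap, also an H2A gene, had 284, 126, 74.1 and 120 CPM, with Wt1 far above the rest, and Hist1h1e came next at 147, 127, 68.5 and 81.0 CPM. These 4 genes made up 53.8% of the summed mean level of the members. The next 6 were Hist1h2an (H2A, mean 59.2 ± 15.2 CPM, SD over 4 libraries), Hist1h2bc (H2B, 54.2 ± 4.06), Hist1h3e (H3, 51.6 ± 8.44), Hist1h4d (H4, 50.7 ± 16.4), Hist1h4i (H4, 44.5 ± 15.3) and Hist1h1a (H1.1, 41.7 ± 14.6). Hist1h2bc varied least among these 10 in relation to its mean. The other 53 members had 25.2 CPM or less on average.

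Levels differed between the gates. The summed core histone level was lowest in the Tnnt2 gate, at 859, 726, 639 and 650 CPM in Wt1, Wt2, Ho1 and Ho2, and in the Cdh5 gate, at 865, 809, 822 and 541 CPM. It was 1412, 1389, 1240 and 1054 CPM in the Hapln1 gate, 1267, 1123, 982 and 876 in the Upk3b gate and 2154, 1623, 894 and 1386 in the Crabp1 gate, where Ho1 was lowest. The Tnnt2 and Cdh5 gates overlapped each other, and all their values lay below those of the Hapln1 gate.

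**Figure D1:**
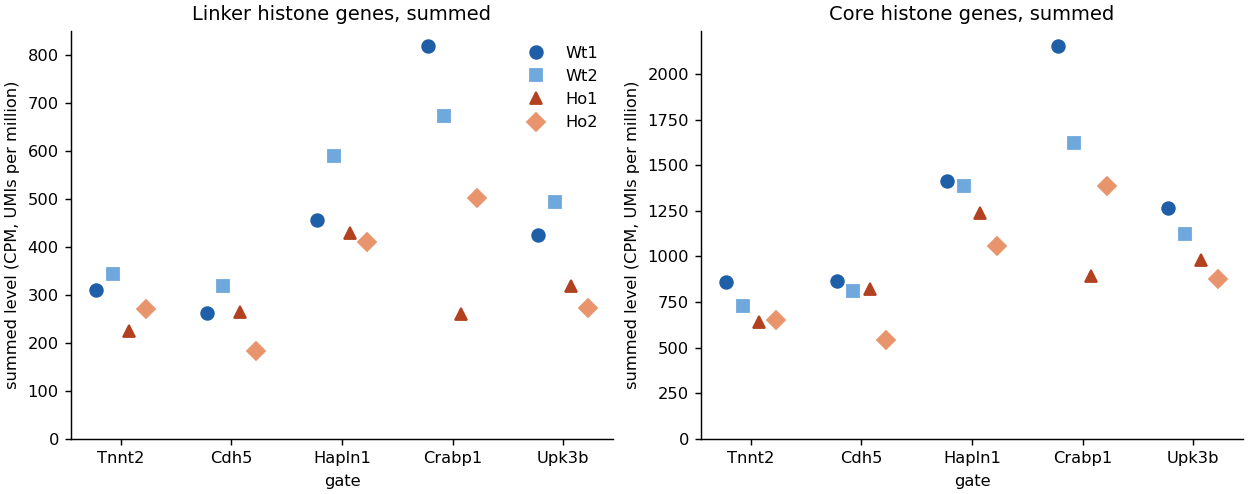
Summed level of the linker (left) and core (right) histone genes in CPM in each gate, with 1 point per library (n = 2 Wt and 2 Ho). Core genes were lowest in the Tnnt2 and Cdh5 gates, linker genes overlapped between these gates, Ho of the Upk3b gate and Ho1 of the Crabp1 gate (37 cells), and both Ho libraries lay below both Wt libraries in every gate except Cdh5.

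Tests of each gate against the mean of the other 4, with the library as a block (edgeR's quasi-likelihood test, adjusted p under 0.05, 57 members and 13792 genes tested), gave 42 members lower and 5 higher in the Tnnt2 gate, where 34.5% of all genes were lower and 37.9% higher. In the Cdh5 gate 43 were lower and 1 higher, against 28.8% and 27.7% of all genes. In the Crabp1 gate 51 were higher and 1 lower, against 24.9% and 26.8%. The Hapln1 gate had 17 higher and 2 lower (26.3% and 21.4% of all genes), and the Upk3b gate 8 higher and 2 lower (21.6% and 23.5%). The median log2 fold change of the members was -0.57 in the Tnnt2 gate, -0.60 in Cdh5, 0.20 in Hapln1, 0.78 in Crabp1 and 0.21 in Upk3b, beside medians of all genes between -0.06 and 0.02. In the Hapln1 gate the count of members called higher went from 7 to 22 as single libraries were left out, with 7 without Ho2 or Wt2, 11 without Ho1 and 22 without Wt1. For the Crabp1 gate it was 35 without Wt1, 48 without Wt2, 51 without Ho1 and 52 without Ho2.

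The 5 members raised in the Tnnt2 gate were 3 H2B genes, 1 H2A gene and 1 linker gene. Hist3h2ba, an H2B gene on chromosome 11, was at 28.5, 24.2, 18.7 and 20.3 CPM there in Wt1, Wt2, Ho1 and Ho2, and at 4.68, 5.54, 4.19 and 3.86 in the Hapln1 gate, and its log2 fold change was 1.64 (SE 0.09, edgeR adjusted p = 7.8e-12). Hist1h2bc had 76.9, 66.6, 70.7 and 74.1 CPM in the Tnnt2 gate and at most 52.3 CPM in any library of the other gates, with a log2 fold change of 1.00 (SE 0.06, edgeR adjusted p = 5.11e-11). Hist2h2be rose by 1.03 (SE 0.32) in the fit but had 0.797 to 1.13 CPM in the Tnnt2 gate, within its range in the Crabp1 gate, and is called at very few counts. The fold change was 0.91 (SE 0.09) for Hist3h2a (H2A) and 0.63 (SE 0.08) for the linker gene Hist1h1c. Every library of the Tnnt2 gate was thus above every library of the other gates for Hist1h2bc, and Hist3h2ba overlapped with the Crabp1 gate alone (22.4, 26.2, 15.9 and 16.3 CPM). The lowest called in the Tnnt2 gate were the H4 gene Hist2h4 at -1.48 (SE 0.14), Hist1h2af (H2A) at -1.40 (SE 0.12) and Hist1h2ao (H2A) at -1.30 (SE 0.29).

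In the other gates the extremes were partly genes of few counts. In the Crabp1 gate Hist1h2bl, Hist1h2bp and Hist1h2af were highest (log2 1.60, 1.49 and 1.22), Hist1h1c and Hist1h2ac were lowest among those raised (0.31 and 0.33), and Hist1h2bc fell (-0.57). In the Cdh5 gate Hist1h2bl, Hist1h2bp and Hist1h4k were lowest (-1.79, -1.26 and -1.24), and the 1 member raised was Hist4h4, an H4 gene on chromosome 6 (0.38, SE 0.14, edgeR adjusted p = 0.0258). In the Hapln1 gate Hist2h2bb, Hist1h2ae and Hist1h2bh were highest (0.55, 0.53 and 0.48), and Hist3h2ba (-1.58) and Hist1h2bk (-0.28) fell. In the Upk3b gate Hist1h2bk, Hist1h2ag and Hist1h2bp were highest (0.95, 0.87 and 0.80), and Hist3h2ba (-0.56) and Hist1h4h (-0.43) fell. Hist1h2bl did not exceed 1.99 CPM in any library of these gates.

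Linker genes did not all follow the core genes. Hist1h1e was higher in the Crabp1 gate (log2 fold change 0.69, SE 0.10) and lower in the Cdh5 gate (-0.60, SE 0.10), and did not pass the test in the Tnnt2 gate (-0.03, SE 0.09, edgeR adjusted p = 0.752), the Hapln1 gate (0.16, SE 0.09) or the Upk3b gate (-0.22, SE 0.11). Over the 4 libraries it averaged 154 ± 71.6 CPM (SD) in the Crabp1 gate, 114 ± 28.6 in Hapln1, 91.5 ± 34.8 in Upk3b, 85.5 ± 22.4 in Tnnt2 and 72.2 ± 22.1 in Cdh5, and each neighbouring pair in this order differed by less than its spread. Hist1h1b fell in the Tnnt2 gate (-0.33, SE 0.14) and in Cdh5 (-0.79, SE 0.15), and rose in Crabp1 (0.66, SE 0.14) and Hapln1 (0.43, SE 0.13). Hist1h1a fell in Tnnt2 (-0.91, SE 0.13) and Cdh5 (-0.45, SE 0.14) and rose in Crabp1 (0.92, SE 0.14) and Hapln1 (0.37, SE 0.13). Hist1h1d (H1.3) fell in Cdh5 (-0.60, SE 0.15) and rose in Crabp1 (0.57, SE 0.15). Hist1h1c (H1.2) rose in Tnnt2 and Crabp1 and fell in Cdh5 (-0.79, SE 0.11). Hist1h1t, the testis H1, had at most 0.651 CPM in any gate and library and was not tested there.

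Linker genes took a share of the histone UMIs whose mean over the libraries lay between 25.2% and 28.5% in every gate. Within each library the share was higher in the Tnnt2 gate than in the Cdh5, Hapln1 and Upk3b gates, a difference that was not tested. The share was 26.6% in Wt1 (exact 95% interval 26.0 to 27.1), 32.1% in Wt2 (31.7 to 32.5), 26.0% in Ho1 (25.6 to 26.4) and 29.3% in Ho2 (28.9 to 29.8) in the Tnnt2 gate. Wt2 was the highest library in all 5 gates, from 28.2% in Cdh5 to 32.1% in Tnnt2, and the Wt and Ho values overlapped in the Tnnt2, Cdh5 and Hapln1 gates. The intervals cover counting error only, and Wt1 and Wt2 differed by more than them in each gate. Means over the 4 libraries were 28.5 ± 2.80% (SD) in the Tnnt2 gate, 25.2% in Cdh5, 27.0% in Hapln1, 26.5% in Crabp1 and 25.9% in Upk3b.

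The relation to the cell cycle was measured with gene lists that hold no clustered histone. In cells of at least 5000 UMIs, S-phase-high cells were the top 20% of each library by the share of UMIs in 44 S phase genes, and cycle-low cells were below the library's median for these and for 54 G2/M phase genes. Of 59 members tested, 56 were higher and 3 lower in S-phase-high cells (edgeR's quasi-likelihood test with the library as a block), against 25.6% and 25.5% of all 14367 genes. The median log2 fold change of the members was 3.21, and of all genes -0.00.

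The largest rise was that of Hist1h2af, from 0.153 ± 0.129 CPM (SD, n = 4 libraries) to 14.8 ± 2.64 (log2 6.64, SE 0.26). Hist1h1b went from 20.003, 9.36, 5.38 and 6.52 CPM in cycle-low cells of Wt1, Wt2, Ho1 and Ho2 to 664, 605, 424 and 516 in S-phase-high cells (log2 5.93, SE 0.24), and Hist1h2an rose by 5.61 (SE 0.14). Among the other linker genes Hist1h1a rose by 4.85 (SE 0.14), Hist1h1d by 4.02 (SE 0.11) and Hist1h1e by 3.21 (SE 0.08), from 28.5, 30.2, 16.4 and 21.9 CPM to 283, 274, 153 and 175. Hist1h1c rose least of the linker genes, from 11.6, 11.8, 13.3 and 15.3 CPM to 25.2, 24.8, 16.2 and 20.5 (log2 0.75, SE 0.18, edgeR adjusted p = 0.0149). In cells high for G2/M phase genes and not for S phase genes, the mean level over the 4 libraries lay between the other classes for 56 of the 59 members, and Hist1h1e was at 158, 155, 87.3 and 97.9 CPM. The exceptions were Hist1h2ag, Hist2h2ab and Hist1h2bc, and for Hist1h1c both Ho libraries were below their cycle-low value.

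The 3 members that fell were Hist3h2ba, from 30.2 ± 6.96 to 10.2 ± 4.23 CPM (log2 -1.59, SE 0.15), Hist3h2a, from 22.2 ± 2.35 to 7.25 ± 1.03 (-1.58, SE 0.07), and Hist1h2bc, from 84.9 ± 8.40 to 34.1 ± 3.01 (-1.28, SE 0.09). Cycle-low and S-phase-high values did not overlap for any of them. All 3 also fell within the Tnnt2 gate alone, by 1.18, 1.75 and 1.21 on the log2 scale (SE 0.12, 0.16 and 0.08), so that the fall was present without the other gates. These 3 genes are also among the 5 raised in the Tnnt2 gate, and the other 2, Hist2h2be and Hist1h1c, had the smallest rises of the 56. The S phase list itself was lowest in the Tnnt2 gate, at 2070 to 2148 CPM, against 3206 to 3607 in the Cdh5 gate. The members without a stem-loop, with up to 100 and with over 100 annotated bases after it had median rises of 3.73, 3.42 and 2.70 (20, 20 and 19 members tested), with wide overlap between the groups.

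**Figure D2:**
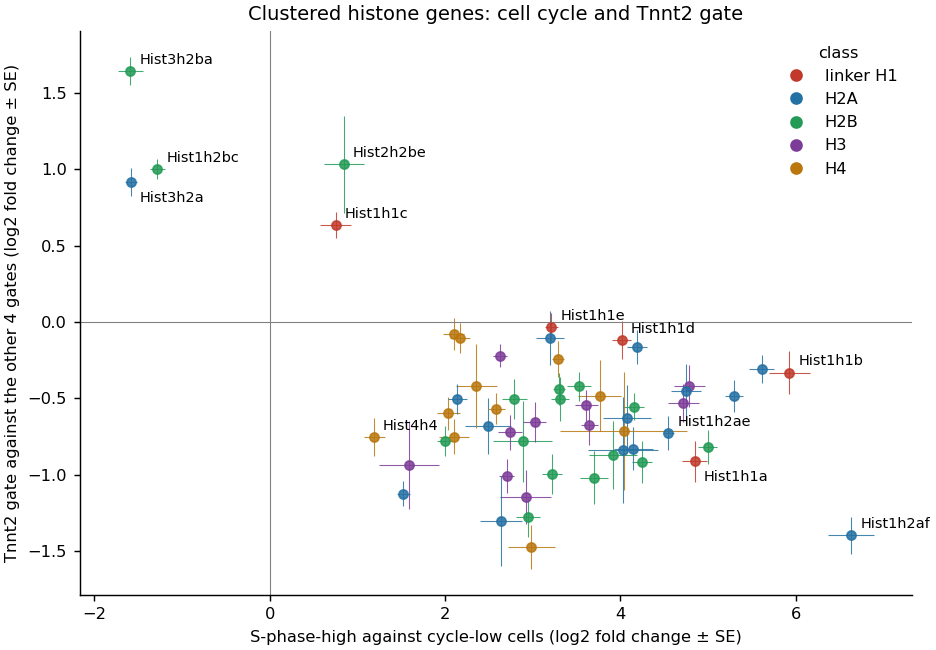
Log2 fold change of each member in S-phase-high against cycle-low cells (x axis) and in the Tnnt2 gate against the other 4 gates (y axis), with SE bars and colours for the histone class. Hist3h2ba, Hist3h2a and Hist1h2bc lie at the upper left, low in S phase and high in the Tnnt2 gate, apart from the remaining members.

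Hist1h1e was lower in Ho in every gate, which is how it was singled out and carries no test. In the Tnnt2 gate it had 99.4 and 109 CPM in Wt1 and Wt2 and 61.6 and 72.0 in Ho1 and Ho2 (log2 fold change -0.66). In the Cdh5 gate it had 84.9 and 95.9 CPM against 60.9 and 47.2 (-0.68). In the Hapln1 gate it had 117 and 154 against 95.9 and 91.0 (-0.52), and the fold change was -0.33 without Wt2. The 6 endothelial markers in that gate summed to 415, 413, 425 and 566 CPM in Wt1, Wt2, Ho1 and Ho2. All 6 were highest in Ho2, and their part in the difference was not tested. Hist1h1e was lower in both Ho than in both Wt libraries in these 3 gates. In the Crabp1 gate the values were 206 and 219 against 67.5 and 124 (-1.08). The fold change there was -0.78 without Ho1, which had 37 cells in that gate, and -1.69 without Ho2. The cells of this gate differed by library. Here the 6 cardiomyocyte markers summed to 294, 514, 763 and 467 CPM in Wt1, Wt2, Ho1 and Ho2, and 5 of them were highest in Ho1. The 6 endothelial markers summed to 61.9, 81.6, 123 and 83.0 CPM in the same order. The 6 cushion markers, with Vcan the most abundant, summed to 501, 670, 1187 and 454 CPM in Wt1, Wt2, Ho1 and Ho2, and 5 of them were highest in Ho1, the exception being Twist1 with 216, 188, 167 and 113 CPM. The 6 pharyngeal and outflow markers summed to 1234.2, 924, 719 and 883 CPM, with Crabp1 the most abundant and Dlx5 at 0 in Ho1. Of these, 5 were lowest in Ho1, while Isl1 (98.9, 279, 79.4 and 223 CPM) and Foxf1 (28.4, 64.6, 5.96 and 94.8) were higher in Wt2 and Ho2 than in Wt1. The 5 epithelial markers, led by Krt18, summed to 220, 461, 161 and 376 CPM, and 4 were lowest in Ho1, with Cldn7 and Cdh1 at 0 there and Krt8 the exception. Their part in the difference was not tested. In the Upk3b gate Hist1h1e had 119 and 124 CPM against 65.0 and 57.9 (-0.96). Over all kept cells it had 147 and 127 against 68.5 and 81.0 (-0.83). No overlap between the genotypes was seen in any of the 5 gates or in all kept cells, and without Ho1 the fold change was -0.60 in the Tnnt2 gate, -0.92 in Cdh5, -0.57 in Hapln1 and -1.06 in Upk3b.

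The Hist1h1e share of linker UMIs holds the same UMIs that singled the gene out, so it is no separate result. Its intervals cover counting error only and are no test of genotype. Hist1h1e was a smaller part of the linker UMIs in Ho in 4 of the 5 gates. In the Tnnt2 gate it made up 32.0% in Wt1 (exact 95% interval 30.8 to 33.2), 31.7% in Wt2 (30.98 to 32.5), 27.4% in Ho1 (26.6 to 28.2) and 26.7% in Ho2 (25.9 to 27.6). Both Ho libraries were below both Wt libraries in 4 of the 5 gates, all but Crabp1, where the shares were 25.2, 32.6, 26.0 and 24.7% and the interval of Ho1 ran from 18.7 to 34.3%. Hist1h1b, the largest linker component, made up 47.2, 50.2, 49.3 and 51.7% in the Tnnt2 gate.

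**Figure D3:**
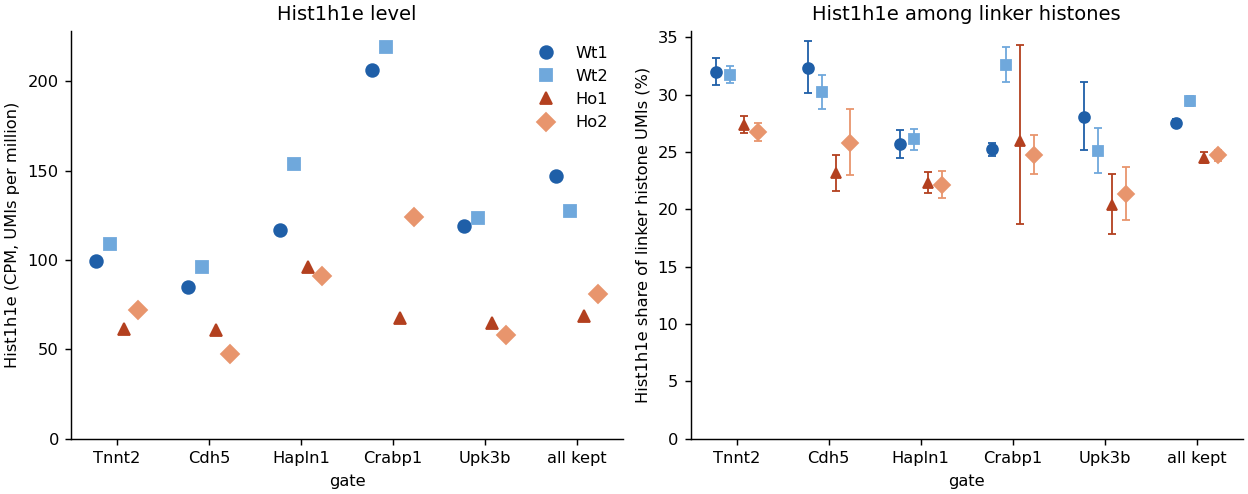
Hist1h1e level in CPM (left) and its share of linker histone UMIs in percent (right, bars are exact 95% intervals of counting error) for each gate and all kept cells, with 1 point per library. Both Ho libraries lie below both Wt libraries for the level in every gate, and for the share in every gate except Crabp1.

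Hist1h1e was also summed within cycle classes, as a description of the same libraries. In S-phase-high cells of the Tnnt2 gate Hist1h1e had 284 and 317 CPM in Wt1 and Wt2 and 177 and 193 in Ho1 and Ho2, and both Ho libraries were below both Wt libraries in S-phase-high and in G2/M-high cells of all 5 gates. Some of these sums were small, with 25 S-phase-high cells and 113 Hist1h1e UMIs in the Tnnt2 gate of Wt1, 13 cells and 61 UMIs in Upk3b of Wt1, and 5 cells and 11 UMIs in Crabp1 of Ho1. In cycle-low cells this held in 3 of 5 gates, at levels of 9.69 to 48.4 CPM. In the same S-phase-high cells the other linker genes summed to 835 and 879 CPM in Wt against 590 and 714 in Ho in the Tnnt2 gate, with no overlap in any of the 5 gates. Core genes summed to 2190 and 2010 against 1642 and 1599 CPM there, with no overlap in 4 of 5 gates, the exception being Crabp1. In G2/M-high cells of the Tnnt2 gate both overlapped, with 235 and 267 against 227 and 262 CPM for the other linker genes and 909.8 and 835 against 841 and 879 for the core genes. Both Ho libraries were below both Wt libraries in the other 4 gates for G2/M-high cells, and in 3 of 5 for cycle-low cells, for each of these sums. The S phase list in S-phase-high cells was 5940 and 5225 CPM in Wt against 4883 and 5392 in Ho in the Tnnt2 gate, and lay below both Wt libraries in both Ho libraries in the Cdh5, Hapln1 and Crabp1 gates. Over the whole Tnnt2 gate it was 2070, 2104, 2111 and 2148 CPM. The share of all genes with both Ho below both Wt libraries was not counted in these cycle classes, so the counts lack a background. In the whole gates that share was 14.8% to 22%. The part of the cell cycle in the Hist1h1e values was not tested.

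**Figure D4:**
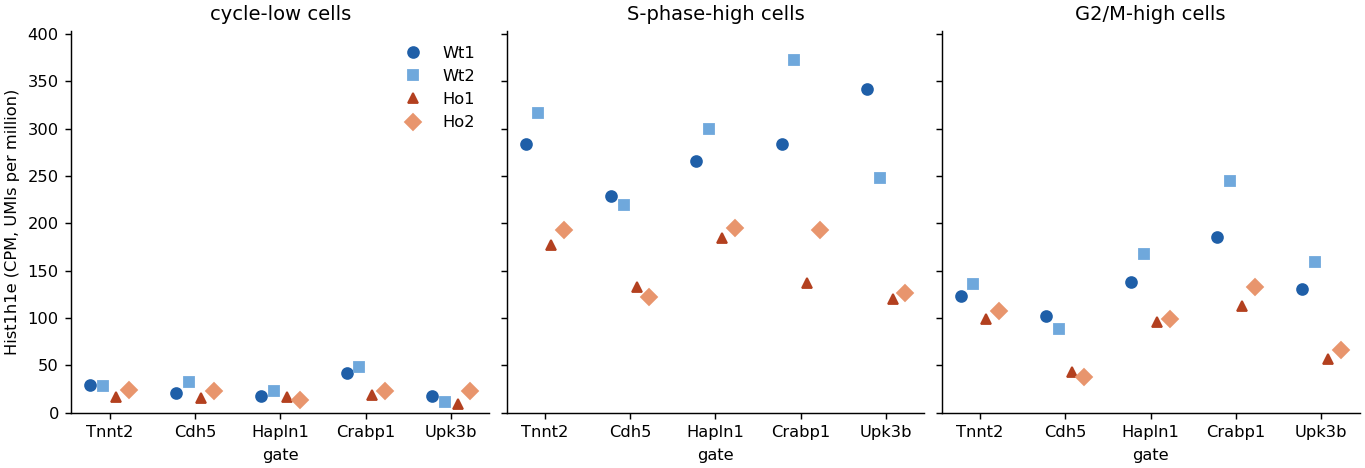
Hist1h1e level in CPM by gate and library in cycle-low (left), S-phase-high (middle) and G2/M-high cells (right), with 1 point per library. Levels were highest in S-phase-high cells, and both Ho libraries lay below both Wt libraries in every gate of the S-phase-high and G2/M-high cells.

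For the other members the comparison of Ho with Wt was tested, and no member passed in any gate with the filter and design used here. In the Tnnt2 gate 0 of 60 were called by edgeR's quasi-likelihood test, beside 0% of all 14581 genes, 12 had an unadjusted p under 0.05 (881 of all genes), and DESeq2 called 1, Hist1h2ae, among 19 genes. In the Cdh5 gate 0 of 45 were called (0% of genes), in Hapln1 0 of 53 (0.0312%), in Crabp1 0 of 50 (0%), in Upk3b 0 of 45 (0.0575%), and in all kept cells 0 of 62 (0%). In this order 4, 7, 8, 8 and 9 members had an unadjusted p under 0.05, as did 399 of 11910, 788 of 12838, 163 of 11618, 516 of 10436 and 786 of 16978 genes. DESeq2 called 0 members in these other 4 gates and in all kept cells. With no filter on low counts edgeR called 4, 1, 4, 3 and 3 members in Tnnt2, Cdh5, Hapln1, Crabp1 and Upk3b, Hist1h2ap in each of them. These were among 184, 126, 197, 118 and 98 genes called in the same fits. With the replicate block it called 2 members among 51 genes in Tnnt2 and 3 among 83 in Hapln1. The counts also changed with single libraries. Without Ho1, edgeR called 4 members in Tnnt2, 5 in Cdh5, 5 in Hapln1 and 7 in Upk3b, among 187, 181, 191 and 130 genes, and without Ho2 it called 4, 5, 4 and 2 among 206, 619, 113 and 97 genes. The counts without Wt1 or Wt2 lie within the ranges given with the processing below, where all genes called stand beside the members. In the Crabp1 gate no member was called with any library left out. Hist1h2ae was among those called in Tnnt2, Cdh5, Hapln1 and Upk3b without Ho1. With 2 libraries against 2, an exact permutation test of 1 gene cannot give a p below 0.333.

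Both Ho libraries lay below both Wt libraries for 19 of 60 members in the Tnnt2 gate, where 15.9% of all genes did so, and for 31 of 50 in Crabp1 (14.8% of genes) and 31 of 62 in all kept cells (22.7%). The counts were 8 of 45 in Cdh5 (22% of genes), 9 of 53 in Hapln1 (20.6%) and 12 of 45 in Upk3b (21.1%). With Ho1 included, the shares in Cdh5 and Hapln1 were thus below those of all genes, but with Ho2 alone they were above, as given below. The opposite order, with Wt1 and Wt2 each below Ho1 and Ho2, held for 9 of 60 members in Tnnt2 (17.4% of genes), 1 of 45 in Cdh5 (11%), 7 of 53 in Hapln1 (14.7%), 1 of 50 in Crabp1 (11.8%), 5 of 45 in Upk3b (12.1%) and 2 of 62 in all kept cells (14.9%). The median log2 fold change of the members was -0.13 in Tnnt2, -0.04 in Cdh5, -0.01 in Hapln1, -0.50 in Crabp1, -0.20 in Upk3b and -0.31 in all kept cells, beside medians of all genes within 0.01 of 0. For the 4 other linker genes tested it was -0.30, -0.24, -0.26, -0.90 and -0.50 in the 5 gates in this order, and for the core genes -0.10, -0.02, 0.00, -0.47 and -0.16. Without Ho1 the medians of the members were -0.27 in Tnnt2, -0.50 in Cdh5, -0.22 in Hapln1, -0.43 in Crabp1, -0.25 in Upk3b and -0.37 in all kept cells, further from 0 than with it in all but Crabp1. Those of the other linker genes were then -0.29, -0.57, -0.38, -0.56 and -0.74 in the 5 gates. Ho2 alone lay below both Wt libraries for 38 of 52 members in Crabp1 (26.7% of genes) and 43 of 62 in all kept cells (30.7%). The counts were 34 of 60 in Tnnt2 (3768 of 14968 genes) and 35 of 46 in Cdh5 (4588 of 11794 genes). They were 30 of 54 in Hapln1 (4783 of 12998 genes) and 27 of 47 in Upk3b (3816 of 11216 genes). Sums, which the abundant genes set, differed by class. Summed H2A was lower in both Ho than in both Wt libraries in 5 of 5 gates, for example at 936 and 870.0 CPM against 707 and 626 in Hapln1, and so was H4, at 151 and 153 against 147 and 123 there. H2A in the Crabp1 gate summed to 1326, 968, 514 and 801 CPM in Wt1, Wt2, Ho1 and Ho2 and H4 to 309, 231, 91.3 and 196, so that Ho2 was also below both Wt libraries. H3 was so in 2 gates, and H2B in Crabp1 alone, with 193 and 209 CPM in Wt against 241 and 184 in Ho in Hapln1. The Crabp1 and all-cell values rest on unequal cell numbers of the Crabp1 gate, 37 in Ho1 and 2315 in Wt1.

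**Figure D5:**
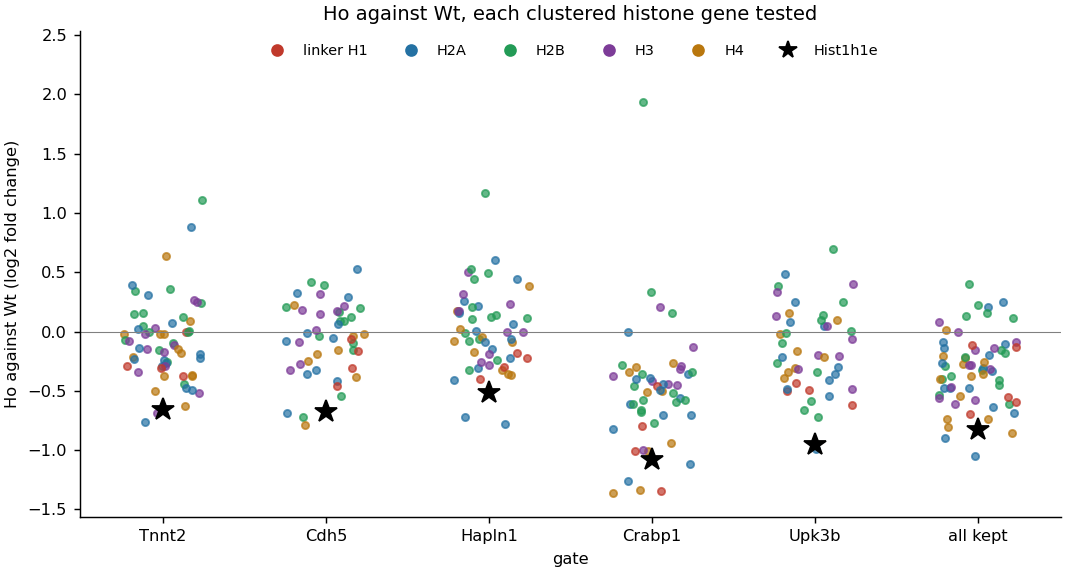
Log2 fold change of Ho against Wt (y axis) for each member tested in each gate and in all kept cells, coloured by histone class, with Hist1h1e as a star. Most members lie within 0.5 of 0 in the Tnnt2, Cdh5 and Hapln1 gates, and most lie below 0 in the Crabp1 gate.

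Members are named next for lying on the same side in several gates, a choice made after their values were seen, and the gates share the same 4 libraries. Of the 9904 genes tested in all 5 gates, 0.909% had both Ho below both Wt libraries in all 5 and 3.72% in at least 4, and 1.49% had them above in at least 4, beside 1, 4 and 1 of the 45 members. Hist1h1d, which encodes H1.3, was lower in both Ho than in both Wt libraries in all 5 gates, for example at 21.2 and 21.8 against 17.3 and 18.3 CPM in the Tnnt2 gate (-0.29, SE 0.09, edgeR adjusted p = 0.77). Hist1h2ae was so in 4 of 5 gates, with 226 and 190 against 153 and 145 CPM in the Tnnt2 gate (-0.49, SE 0.11, edgeR adjusted p = 0.486), and Hist3h2ba and Hist1h2ap also in 4. Hist1h2ap had 155, 85.2, 53.4 and 90.3 CPM in the Tnnt2 gate, where Wt2 lay below Ho2 and Wt1 was alone in being high. Hist1h1b had 147 and 172 against 111 and 139 CPM (-0.37, SE 0.11) and Hist1h1a 25.02 and 22.1 against 19.6 and 18.7 (-0.30, SE 0.11) in that gate, without passing the test. Hist1h1c had 18.1 and 17.8 against 15.4 and 20.99 CPM, and Hist1h2bc 76.9 and 66.6 against 70.7 and 74.1, with overlap. In the other direction Hist1h2ag, an H2A gene, was higher in both Ho libraries in 4 of 5 gates, at 13.3 and 14.6 against 21.9 and 19.9 CPM in the Hapln1 gate (0.60, SE 0.12, edgeR adjusted p = 0.268).

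Whether the genotype effect differs between gates was tested with the interaction terms. None of the 56 members other than Hist1h1e passed (0% of 13792 genes called by edgeR), and 0 of them and 246 of all genes had an unadjusted p under 0.05. In 6 of the 54 members tested in at least 2 gates both Ho libraries lay below both Wt libraries in 1 gate and above them in another, as did 14.5% of 13045 genes.

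Genes of the same pathway were counted beside all genes, of which 25.6% were higher and 25.5% lower in S-phase-high cells and 37.9% and 34.5% in the Tnnt2 gate. In the other gates 27.7% of all genes were higher and 28.8% lower in Cdh5 and 26.3% and 21.4% in Hapln1. The shares were 24.9% and 26.8% in Crabp1 and 21.6% and 23.5% in Upk3b, and several of the counts below are near such shares. Between the genotypes edgeR called 0 genes of any kind in the Tnnt2 gate, as given above with the unadjusted and DESeq2 counts. Of 11 replication-independent histones tested, which are made outside S phase too, 10 were higher in S-phase-high cells with a median log2 fold change of 0.85, and 10 were lower in the Tnnt2 gate. In the Crabp1 gate 10 were higher and 1 lower, in Cdh5 2 and 5, in Hapln1 4 and 0 and in Upk3b 3 and 1. The most abundant were H2afz (H2A.Z, 4058 CPM in all kept cells, S phase log2 1.34) and H3f3b (H3.3, 2114 CPM, 0.85). Of 23 genes of histone mRNA transcription and processing tested, 18 were higher and 1 lower in S-phase-high cells, and 13 were lower and 6 higher in the Tnnt2 gate. In the other gates 7 were higher and 4 lower in Cdh5, 8 and 2 in Hapln1, 10 and 4 in Crabp1 and 4 and 5 in Upk3b. Slbp, which binds the stem-loop, rose by 1.86 on the log2 scale in S-phase-high cells and was 1.26 lower in the Tnnt2 gate (log2 fold change -1.26), with 162, 135, 109 and 125 CPM in Wt1, Wt2, Ho1 and Ho2 in all kept cells. Its difference between the genotypes in the Tnnt2 gate was -0.10 (SE 0.08, edgeR adjusted p = 0.879).

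Of 21 histone chaperones, 19 were higher and 1 lower in S-phase-high cells, with Nasp, a carrier of histones H1, H3 and H4, at 1.83 and Npm1 at 0.71, and 14 were lower and 4 higher in the Tnnt2 gate. They counted 8 higher and 2 lower in Cdh5, 5 and 1 in Hapln1, 9 and 1 in Crabp1 and 5 and 2 in Upk3b, beside the shares of all genes given above. The counts higher in Hapln1 and Upk3b were near those shares (26.3% and 21.6%). Of 16 exosome and polyadenylation genes tested, 14 were higher and none lower in S-phase-high cells, among them Exosc8, an exosome subunit, at 1.20, and 7 were lower and 2 higher in the Tnnt2 gate. Their counts in the other gates, 5 higher and 4 lower in Cdh5, 3 and 1 in Hapln1, 4 and 4 in Crabp1 and 7 and 0 in Upk3b, included shares near those of all genes. Of 19 dissociation and heat shock genes, 3 were higher and 9 lower in S-phase-high cells. Of these dissociation genes, 12 were higher and 2 lower in the Tnnt2 gate, 2 and 13 in Crabp1, 6 and 5 in Cdh5, 4 and 6 in Hapln1 and 9 and 3 in Upk3b. For Ho against Wt the median log2 fold change of the S phase genes was -0.02 in the Tnnt2 gate and 0.02, 0.01 and 0.02 in Cdh5, Hapln1 and Upk3b, and the G2/M list 0.04, 0.02, 0.11 and -0.03. In the Crabp1 gate and in all kept cells, where the histone members were lowest in Ho, the S phase list was lower too, with medians of -0.26 (41 of 44 genes negative) and -0.16 (38 of 44), and the G2/M list had -0.23 (46 of 54) and -0.05 (37 of 54). Without Ho1 these became -0.02 (25 of 44) and -0.15 (34 of 44) for the S phase list and -0.12 (46 of 54) and -0.06 (36 of 54) for the G2/M list, and in the Cdh5 gate -0.09 and -0.14.

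Other lists also lay to one side between the genotypes in Crabp1 and in all kept cells. The medians there were -0.21 and -0.23 for replication-independent histones (9 of 11 negative in both), -0.22 (17 of 21) and -0.13 (18 of 21) for chaperones and -0.18 and -0.11 for exosome and polyadenylation genes (14 of 16 in both). Without Ho1 those of the Crabp1 gate were -0.05, -0.05 and -0.06, and those of all kept cells -0.12, -0.08 and -0.10. With Ho1 kept, the medians for genes of histone mRNA transcription and processing were -0.06 and -0.07. Also with Ho1, the medians of these 4 lists in the other gates lay between -0.08 and 0.04. Dissociation and heat shock genes had positive medians, 0.27 in all kept cells and 0.23 in Upk3b (5 of 19 negative in both), 0.12 in Crabp1, 0.08 in Hapln1 and 0.06 in Tnnt2, but -0.12 in Cdh5. Without Ho1 the median turned to -0.09 in Hapln1 (11 of 19 negative) and was -0.19 in Cdh5. It was then 0.10 in Tnnt2, 0.15 in Crabp1, 0.33 in Upk3b and 0.21 in all kept cells. The part of any of these genes in the member values was not tested.

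The genes whose log2 CPM was most like that of Hist1h1e over the 20 sums of 4 libraries and 5 gates were Traf3ip1 (Pearson r = 0.89), Tspan3 (0.87), Brd1 (0.86), Hist1h4h (0.86) and Hist1h4d (0.85). The 20 sums share libraries and depth, so r describes these sums and has no p. Over the 56 other members tested r ranged from -0.13 to 0.86.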

How the data were processed

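The authors aligned the reads with Cell Ranger 6.1.1 to mm10 (GRCm38) and deposited raw UMI counts per gene and barcode for each library, without normalization. Depth ranged from 107377100 UMIs in Ho2 to 127018819 in Ho1. Barcodes with over 20% mitochondrial UMIs, under 500 or over 50000 UMIs, or under 500 or over 6000 genes were removed, as the study's methods state, and 746, 464, 440 and 334 doublets (Wt1, Wt2, Ho1, Ho2) were taken out, namely the cells with the highest Scrublet scores (scanpy 1.11.5), their number fixed at a rate of 0.8% per 1000 cells, where the study used DoubletFinder. A cell entered the gate of the marker with the highest level relative to that marker's percentile 99 over kept cells, when this was at least 0.1, with at least 2 UMIs, and the next marker was under 0.5 of it. UMIs were summed per library and gate, since cells are not replicates.

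Sums were compared with edgeR 4.0.16 in R 4.3.3 (quasi-likelihood test, TMM, filterByExpr, Benjamini-Hochberg adjustment over all genes tested, 0.05). SE is the fold change over the square root of F. Shares have exact (Clopper-Pearson) 95% intervals, which cover counting error only. The tests were checked on simulated data.

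The members and gene lists were chosen with earlier results of these data known. Named were all linker genes, the 10 most abundant members, members called between the genotypes, the 3 highest and 3 lowest called members of each contrast, the most abundant genes of each list, and the 5 genes most like Hist1h1e. Members named for their steadiness across gates were chosen after their values were seen. The lists were S phase, G2/M phase, replication-independent histones, histone mRNA transcription and processing, histone chaperones, exosome and polyadenylation, dissociation and heat shock, and erythroid genes. Alternatives were DESeq2 1.42.0, RLE size factors, no filter or at least 10 UMIs in every library, a block for the replicate number, each library left out in turn, a stricter gate, doublets kept, at most 10% mitochondrial UMIs, the Tnnt2 gate alone or the top 10% for S phase, and linker shares without Hist1h1e or Hist1h1c.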

Additional observations from a re-analysis of the deposited data

Results flagged for a closer look

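For 6 members other than Hist1h1e, all Ho libraries moved one way against all Wt libraries in 1 gate and the opposite way in another. The log2 fold change of Ho against Wt was -0.58 for Hist1h2bj in the Crabp1 gate and 0.38 in Upk3b. For Hist1h2bg it was 0.35 in the Tnnt2 gate, -0.66 in Crabp1 and 0.25 in Upk3b. For Hist1h2bf it was 0.16 in Tnnt2 and -0.55 in Cdh5, and for Hist1h3g 0.25 in Tnnt2 and -0.13 in Crabp1. Hist2h4 had 0.38 in Hapln1 and -0.50 in Crabp1, and Hist2h2aa1 had 0.31 in Tnnt2 and -0.71 in Crabp1. In the test of the difference between gates, none of these 6 passed, with unadjusted p from 0.185 to 0.917 (edgeR's quasi-likelihood test, adjusted p = 1 for each). Of all 13045 genes tested in at least 2 gates, 14.5% showed such opposite sides, against 6 of 54 members, so the members' share was not above it. In 5 of the 6 the negative value was in the Crabp1 gate, where Ho1 had 37 cells.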

How the results depend on the processing

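Depth limits the smaller gates (Crabp1 in Ho1, Upk3b), and 2 libraries per genotype limit all comparisons of Ho with Wt. Hist1h1e stayed lower in Ho in every gate and setting run, with log2 fold changes of -0.72 to -0.59 in Tnnt2, -0.92 to -0.49 in Cdh5, -0.68 to -0.33 in Hapln1, -1.69 to -0.78 in Crabp1, -1.06 to -0.84 in Upk3b and -0.95 to -0.72 in all kept cells. Counts of genes called between the genotypes were not stable. Against 0, 0, 4, 0, 6 and 0 in Tnnt2, Cdh5, Hapln1, Crabp1, Upk3b and all kept cells, no filter on low counts gave 184, 126, 197, 118 and 98 in the 5 gates, with 4, 1, 4, 3 and 3 members, of which Hist1h2ap was called in each gate. DESeq2 gave 19 genes in Tnnt2 (1 member), 3 in Cdh5, 16 in Hapln1 and 21 in all kept cells. The stricter gate gave 8 in Tnnt2 and 10 in Hapln1. Deviations of same-numbered libraries had a correlation of -0.47 in all kept cells and of -0.16 to 0.01 in the gates. Whether any libraries share a batch was not tested. With the replicate block 51 genes and 2 members (Hist1h4h, Hist1h2ae) were called in Tnnt2 and 83 genes and 3 members (Hist1h2ap, Hist1h2ag, Hist1h2ae) in Hapln1. A crossed replicate block, added after seeing the data, gave 62, 1, 37, 112, 27 and 72 genes and 1, 0, 1, 6, 1 and 0 members in the same order. Leaving out 1 library gave 12 to 206 genes in Tnnt2 (0 to 4 members), 0 to 619 in Cdh5 (0 to 5), 0 to 191 in Hapln1 (0 to 5), 0 to 2 in Crabp1, 4 to 130 in Upk3b (0 to 7) and 0 to 5 in all kept cells, the remaining single library being taken to vary like the other group. Between gates, members called ranged from 0 to 1 higher in Cdh5, 7 to 22 higher and 1 to 2 lower in Hapln1, and 5 to 8 higher and 0 to 2 lower in Upk3b. All genes called in these fits ranged from 6475 to 7267 in Cdh5, 5325 to 5970 in Hapln1 and 4897 to 5778 in Upk3b. RLE normalization left 1 member lower in Upk3b and the stricter gate 1 in Hapln1. The Tnnt2 gate alone gave 4522 genes between S-phase-high and cycle-low cells, against 7341. Without Hist1h1e counts the linker share was 21.9, 19.6, 21.9, 20.8, 21.1 and 21.7% in the order above, lower by construction. The causes of the other changes were not tested.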
